A study of Mus musculus with 6 samples.

Results

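The interleukin-6 (IL-6) family was followed through 10 genes, chosen by symbol with the differences between doxycycline and untreated tumours already known, above all the low Il11 in doxycycline libraries. They are 5 ligands (Il11, Il6, Lif, Osm and Clcf1), 4 receptor chains (Il6st, Lifr, Osmr and Il11ra1) and the feedback inhibitor Socs3. All 10 were found among the 21671 named genes of the table, and all 10 were among the 14809 genes that passed the filter on low counts. Because the contrast itself led to the choice, the members' differences are given below as descriptions with their errors and without a test.

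The tumours grew under the skin of CD1 nude ho mice, which lack a thymus and with it most T cells, out of transformed hepatoblasts, fetal liver cells that can become hepatocytes or bile duct cells. The protocol, the same for both groups, describes cells carrying TtRMPVIR shST18, a vector in which doxycycline induces a hairpin RNA that targets ST18, a zinc finger transcription factor. The doxycycline group (n = 3, genotype label ST18 knockdown) was killed 4 h after 200 mg/ml doxycycline in 300 µl of water by gavage, and the untreated group (n = 3) is labelled wild type. No group received doxycycline in the absence of the hairpin, so the effects of drug, gavage and hairpin cannot be told apart. The labels do not tie libraries to animals, and if some share an animal, the p-values reflect spread between libraries alone, which may be technical.

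Cytokines of this family act through a shared receptor chain, gp130, encoded by Il6st. Each ligand brings gp130 together with its own partner, such as the alpha chains for interleukin 6 and interleukin 11, or the long signalling chains encoded by Lifr and Osmr. The joined chains activate JAK kinases, which phosphorylate STAT3. STAT3 then induces Socs3, whose product binds gp130 and JAKs and shuts the signal down. In liver the pathway drives the acute phase response, and oncostatin M, the product of Osm, matures fetal liver cells in mouse.

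Library totals ran from 12090309 to 16169043 counts. St18, the gene the hairpin targets, had 34, 12 and 61 counts in doxycycline replicates 1, 2 and 3 and 12, 23 and 19 counts in untreated replicates 1, 2 and 3 (edgeR adjusted p = 0.298 for a log2 fold change of 1.03 with SE 0.55), so the libraries labelled ST18 knockdown did not show less St18 RNA. Doxycycline replicate 2 stood apart: chi-square per degree of freedom was 29.2 and 29.8 against doxycycline replicates 1 and 3, 12.4 between those, and 5.17 to 8.28 between untreated libraries. The keratin genes Krt8 and Krt18 of the hepatoblast list lay between 34.6 and 89.9 CPM (counts scaled to library size with TMM factors) in doxycycline libraries and between 21.3 and 87.9 CPM in untreated libraries, while the hepatocyte marker Alb reached at most 0.137 CPM in doxycycline and 0.151 CPM in untreated libraries. The fetal liver marker Afp reached at most 0.878 CPM in doxycycline and 1.35 CPM in untreated libraries. All 16 hepatoblast, hepatocyte and bile duct markers summed to 282, 205 and 306 CPM in doxycycline replicates 1, 2 and 3. In untreated replicates 1, 2 and 3 they summed to 288, 185 and 206 CPM. Of these markers 11 were tested, with 7 positive and 4 negative log2 fold changes, and 0 reached an edgeR adjusted p under 0.05.

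Marker genes of other cell types differed between the groups, and their part in the results below was not tested. The summed level of 15 skeletal muscle markers was 1506, 3019 and 443 CPM in doxycycline replicates 1, 2 and 3, against 82.7, 229 and 101 CPM in untreated replicates 1, 2 and 3. Most of it was the very long gene Ttn, at 935, 2041 and 297 CPM in doxycycline and 44.6, 156.5 and 68.1 CPM in untreated replicates 1, 2 and 3. Of the 15 markers, 11 were higher (edgeR adjusted p under 0.05). Over all 14809 genes tested, 2.84% were higher and 2.18% lower at that threshold, and 3535 genes had an unadjusted p under 0.05 in edgeR. The 15 fibroblast and mural cell markers summed to 1820 to 2075 CPM in doxycycline and 1356 to 1407 CPM in untreated libraries, with 3 of 15 higher. The macrophage list summed to 529 to 747 CPM in doxycycline and 412 to 500 CPM in untreated libraries, with 3 of 12 tested markers higher. The neutrophil list summed to 83.1 to 125 CPM in doxycycline and 150 to 202 CPM in untreated libraries, with 1 of 7 tested markers lower. Its largest part was Mmp9, with means of 48.8 CPM in doxycycline and 57.8 CPM in untreated libraries. The endothelial list summed to 452 to 497 CPM in doxycycline and 368 to 401 CPM in untreated libraries, with 2 of 10 higher. The mast cell list summed to 115 to 159 CPM in doxycycline and 167 to 215 CPM in untreated libraries, with 1 of 6 tested markers higher and 1 lower. Most of that sum was Kit, with means of 106 CPM in doxycycline and 163 CPM in untreated libraries. Kit and Hdc had negative log2 fold changes, while the other 4 tested markers (Cpa3, Mcpt4, Cma1 and Tpsb2) had positive ones, and the median over the 6 was 2.11. The list thus did not move in 1 direction. For muscle, macrophages, neutrophils and fibroblasts, edgeR with all libraries gave 15, 6, 4 and 12 markers an unadjusted p under 0.05, DESeq2 called 14, 5, 4 and 8, and limma-voom called 1, 2, 0 and 3. For endothelium and mast cells, 4 and 6 had an unadjusted p under 0.05 in edgeR, DESeq2 called 2 and 3, and limma-voom called 2 and 2. Without untreated replicate 1, 2 or 3 edgeR called 2 fibroblast markers and 0 markers of the other 5 lists, and without doxycycline replicate 2 it called 9 muscle, 5 macrophage, 2 neutrophil, 8 fibroblast, 3 endothelial and 3 mast cell markers. Calls over the whole table moved as well, to 11 to 27 higher and 12 to 25 lower without an untreated replicate. Without doxycycline replicate 2 they were 1244 higher and 866 lower. In none of these 6 lists was a marker in the table at 0 in all 6 libraries. In bulk tissue fewer cells of a type and less RNA per cell cannot be told apart.

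The promoter letters of the ligands and of Socs3 are shown first, because the ligand windows found share a motif and the Socs3 window holds a STAT element. RefSeq windows (build GRCm38.p6, not the mm9 of the counts) were found for 8 of the 10 members and none was in the table used for Osm and Clcf1. The 250 bases before each start were searched on both strands for AP-1 (TGANTCA), the cAMP response element (TGACGTCA), a STAT element (TTCNNNGAA), an NF-kB core (GGNNTTTCC) and C/EBP (TTGCNNAA). Capitals mark the matches, and each sequence reads 5′ to 3′ on the gene's strand. For Il11 the downstream of its 2 listed start sites is printed, and the upstream one held no match.
Il11, chr7:4778142-4778391, minus strand: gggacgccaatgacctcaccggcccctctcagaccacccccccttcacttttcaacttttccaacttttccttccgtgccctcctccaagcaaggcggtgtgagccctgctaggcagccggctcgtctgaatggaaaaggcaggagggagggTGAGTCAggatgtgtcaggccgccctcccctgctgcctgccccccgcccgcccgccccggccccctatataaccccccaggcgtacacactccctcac
Lif, chr11:4257318-4257567, plus strand: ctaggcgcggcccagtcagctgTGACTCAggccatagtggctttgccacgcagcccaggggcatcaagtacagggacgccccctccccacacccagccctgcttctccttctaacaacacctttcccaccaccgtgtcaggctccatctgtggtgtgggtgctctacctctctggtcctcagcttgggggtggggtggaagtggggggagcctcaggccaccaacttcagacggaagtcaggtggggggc
Il6, chr5:30012864-30013113, plus strand: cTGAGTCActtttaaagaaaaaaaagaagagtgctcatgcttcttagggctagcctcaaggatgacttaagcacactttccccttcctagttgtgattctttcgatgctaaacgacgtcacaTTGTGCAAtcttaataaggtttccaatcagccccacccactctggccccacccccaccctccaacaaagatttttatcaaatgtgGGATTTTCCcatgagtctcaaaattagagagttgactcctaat
Socs3, chr11:117969367-117969616, minus strand: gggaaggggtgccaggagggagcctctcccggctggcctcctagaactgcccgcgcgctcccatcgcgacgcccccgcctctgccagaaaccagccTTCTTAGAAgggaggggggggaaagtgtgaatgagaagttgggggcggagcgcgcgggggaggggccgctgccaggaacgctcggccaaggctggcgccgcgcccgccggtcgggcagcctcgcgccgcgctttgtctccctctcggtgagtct

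An AP-1 match, the letters bound by FOS and JUN dimers, was present in the windows of Il11, Lif and Il6, at bases -98 to -92, -228 to -222 and -249 to -243 before the start. Of 32851 windows of this length, 6.75% held AP-1 letters. The Il6 window also held a C/EBP match (TTGTGCAA at -128 to -121, letters found in 9.56% of windows) and an NF-kB core match (GGATTTTCC at -43 to -35, found in 4.93%). The Socs3 window held a STAT match (TTCTTAGAA at -154 to -146, found in 7.02%). None of the searched letters, the cAMP response element (found in 1.55% of windows) included, lay in the windows of Il6st, Lifr, Osmr or Il11ra1. These matches describe letters in a window and are not evidence of binding in these tumours.

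All 5 ligands had lower mean levels in doxycycline than in untreated libraries, by very different amounts. The 4 receptors were split, with 2 higher (Lifr and Il11ra1) and 2 lower (Osmr and Il6st) in doxycycline libraries. The median log2 fold change was -1.17 over the 5 ligands and 0.17 over the 4 receptors, beside 0.01 over all genes tested. The groups did not overlap for 4 of the 10 members (Il11, Lif, Lifr and Socs3), while 29.6% of all genes tested did not overlap. The plot of CPM by library shows each value.

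**Figure D1:**
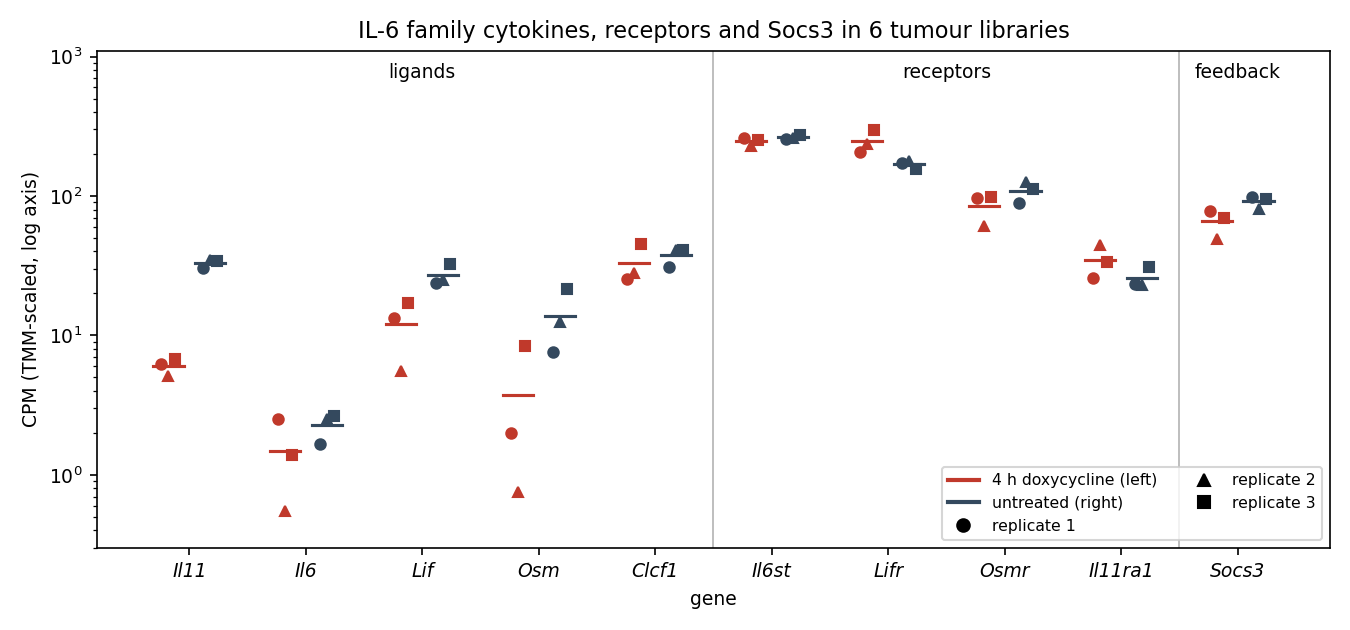
Level of each member in every library, in TMM-scaled CPM on a log axis, with doxycycline (red) left of untreated (dark blue), a marker shape per replicate and a bar at the group mean. Il11 sits between 5.08 and 6.77 CPM in doxycycline libraries and between 30.6 and 34.8 CPM in untreated libraries, while Il6st spans 227 to 263 CPM in doxycycline and 257 to 274 CPM in untreated libraries.

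Il11 encodes interleukin 11, a cytokine that acts on stromal, epithelial and blood-forming cells. Its level was 6.21, 5.08 and 6.77 CPM in doxycycline replicates 1, 2 and 3, against 30.6, 34.8 and 34.2 CPM in untreated replicates 1, 2 and 3. All doxycycline libraries were far below all untreated ones, and the libraries within each group were close together. The doxycycline mean was 18.1% of the untreated mean, a log2 fold change of -2.46 (SE 0.19, 95% interval -2.89 to -2.03). Whichever library was left out, the value stayed between -2.56 and -2.35.

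Lif encodes leukaemia inhibitory factor, which in mouse keeps embryonic stem cells undifferentiated. Its level was 13.4, 5.57 and 17.1 CPM in doxycycline replicates 1, 2 and 3, against 23.7, 25.1 and 32.6 CPM in untreated replicates 1, 2 and 3. The groups did not overlap, but doxycycline replicate 2 was well below the other doxycycline libraries. Its log2 fold change was -1.17 (SE 0.36, 95% interval -2.0 to -0.34), and ran from -1.52 without doxycycline replicate 3 to -0.83 without doxycycline replicate 2.

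Osm, made mainly by blood-derived cells such as macrophages and neutrophils, varied most. It had 24, 11 and 134 counts (2.01, 0.756 and 8.41 CPM) in doxycycline replicates 1, 2 and 3, against 100, 198 and 320 counts (7.56, 12.5 and 21.6 CPM) in untreated replicates 1, 2 and 3. The groups overlapped, since doxycycline replicate 3 lay above untreated replicate 1. Its log2 fold change of -1.88 (SE 0.75, 95% interval -3.59 to -0.17) ranged from -3.34 without doxycycline replicate 3 to -1.39 without doxycycline replicate 2. In the same libraries the neutrophil list summed to 102, 83.1 and 125 CPM in doxycycline replicates 1, 2 and 3 and 178, 150 and 202 CPM in untreated replicates 1, 2 and 3. The macrophage list ran the other way, at 660, 529 and 747 CPM in doxycycline and 500, 412 and 462 CPM in untreated replicates 1, 2 and 3.

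Il6, the inflammatory cytokine that gives the family its name, was the least abundant member. It had 30, 8 and 22 counts (2.52, 0.550 and 1.38 CPM) in doxycycline replicates 1, 2 and 3, against 22, 40 and 39 counts (1.66, 2.52 and 2.63 CPM) in untreated replicates 1, 2 and 3. The groups overlapped. The log2 fold change of -0.64 (SE 0.52, 95% interval -1.83 to 0.56) was -1.22 without doxycycline replicate 1 and -0.24 without doxycycline replicate 2. With these counts and this spread between libraries, the direction of Il6 was not resolved.

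Clcf1 encodes cardiotrophin-like cytokine factor 1, which acts on the Cntfr receptor. It was at 25.4, 28.2 and 44.9 CPM in doxycycline replicates 1, 2 and 3, against 31.0, 41.1 and 41.3 CPM in untreated replicates 1, 2 and 3. The highest and the lowest library were both from the doxycycline group. Its log2 fold change of -0.20 had an SE of 0.23 and a 95% interval of -0.72 to 0.32, and ran from -0.49 without doxycycline replicate 3 to -0.05 without doxycycline replicate 1. In GENCODE M21, 311 of the 3806 exonic bases of Clcf1 also belong to the gene AC109138.7, so reads there are uncertain.

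Il6st, the shared gp130 chain, was the steadiest member. It was at 263, 227 and 254 CPM in doxycycline replicates 1, 2 and 3, against 257, 261 and 274 CPM in untreated replicates 1, 2 and 3. The groups overlapped, and the log2 fold change was -0.09 with a narrow 95% interval of -0.26 to 0.08 (SE 0.08).

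Lifr encodes the chain that joins gp130 to receive leukaemia inhibitory factor and ciliary neurotrophic factor. It was at 207, 238 and 298 CPM in doxycycline replicates 1, 2 and 3, against 171, 180 and 156 CPM in untreated replicates 1, 2 and 3. It was the 1 member whose doxycycline libraries all lay above the untreated ones. The doxycycline mean was 1.46 times the untreated mean (log2 fold change 0.55, SE 0.13, 95% interval 0.26 to 0.84), and the value stayed between 0.40 and 0.66 whichever library was left out.

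Osmr, the oncostatin M receptor chain, was at 96.4, 60.5 and 98.5 CPM in doxycycline replicates 1, 2 and 3, against 89.5, 126 and 112 CPM in untreated replicates 1, 2 and 3. The groups overlapped (log2 fold change -0.36, SE 0.20, 95% interval -0.81 to 0.09), and the value ran from -0.49 without untreated replicate 1 to -0.17 without doxycycline replicate 2. Il11ra1, the alpha chain that binds interleukin 11, was at 25.7, 44.8 and 33.6 CPM in doxycycline replicates 1, 2 and 3, against 23.4, 23.0 and 30.9 CPM in untreated replicates 1, 2 and 3. Its groups overlapped as well (log2 fold change 0.43, SE 0.22, 95% interval -0.07 to 0.93), and the value was 0.60 without doxycycline replicate 1 and 0.20 without doxycycline replicate 2. The near-identical copy Il11ra2 had 0 counts in every library, and how reads that match both genes were counted is not given in the sources used here, so the level of Il11ra1 is uncertain.

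Socs3, the feedback inhibitor, was at 78.1, 49.3 and 70.0 CPM in doxycycline replicates 1, 2 and 3, against 98.8, 80.1 and 95.9 CPM in untreated replicates 1, 2 and 3. All doxycycline libraries were below all untreated ones, with doxycycline replicate 1 just under untreated replicate 2. The doxycycline mean was 71.8% of the untreated mean (log2 fold change -0.48, SE 0.17, 95% interval -0.86 to -0.09), and the value was -0.62 without doxycycline replicate 1 and -0.31 without doxycycline replicate 2. With offsets for GC content and length it was -0.29.

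**Figure D2:**
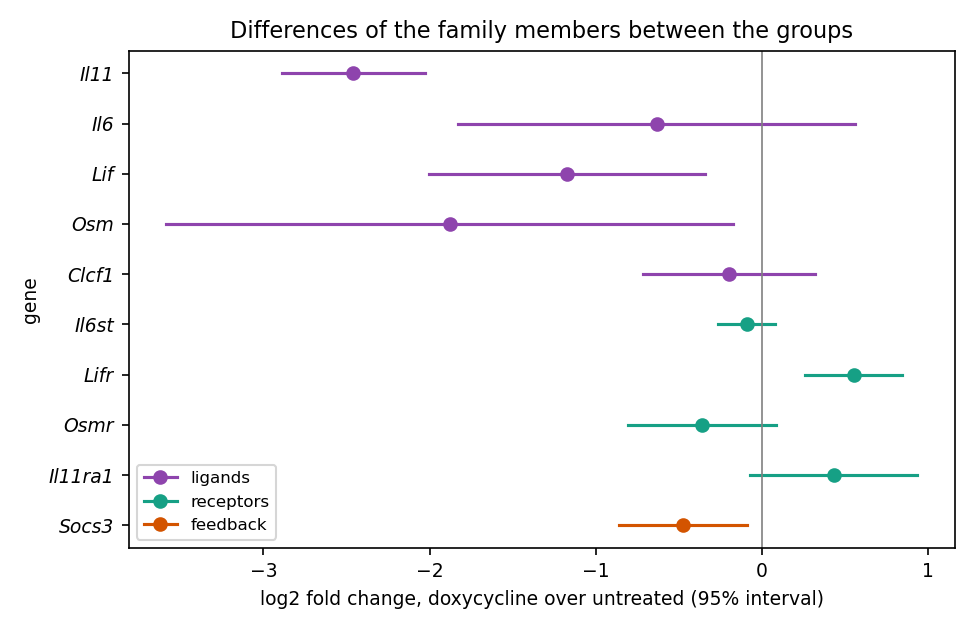
Log2 fold change of each member, doxycycline over untreated, with its 95% interval from the fit over all genes, in colours for ligands, receptors and the feedback inhibitor. All 5 ligands lie left of 0, from -2.46 for Il11 to -0.20 for Clcf1, while the 4 receptors lie between -0.36 for Osmr and 0.55 for Lifr.

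Summed over the family, less ligand RNA stood beside a similar amount of receptor RNA. The 5 ligands summed to 49.6, 40.2 and 78.5 CPM in doxycycline replicates 1, 2 and 3, against 94.5, 116 and 132 CPM in untreated replicates 1, 2 and 3. The 4 receptors summed to 592, 570 and 683 CPM in doxycycline replicates 1, 2 and 3, against 541, 590 and 573 CPM in untreated replicates 1, 2 and 3. The ligand sums did not overlap between the groups and the receptor sums did. The ligand sums include Il11, whose low level in doxycycline libraries led to the choice of this family. Without Il11 the ligand sum of doxycycline replicate 3 lay above that of untreated replicate 1, so the groups overlapped. Receptor reads outnumbered ligand reads 11.6 ± 2.76 times in doxycycline and 5.05 ± 0.696 times in untreated libraries (SD, n = 3 each). Longer transcripts give more reads, so these ratios do not compare RNA molecules. Divided by exonic length in kilobases, the ligands summed to 16.53 ± 5.99 in doxycycline and 39.15 ± 6.54 in untreated libraries. The receptors then summed to 60.05 ± 5.26 in doxycycline and 54.24 ± 2.25 in untreated libraries, a smaller excess over the ligands. The log2 ratio of ligands to receptors was -3.51 ± 0.36 in doxycycline and -2.33 ± 0.21 in untreated libraries, a difference of -1.18. With Il11 left out of the ligands, that difference was -0.85.

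**Figure D3:**
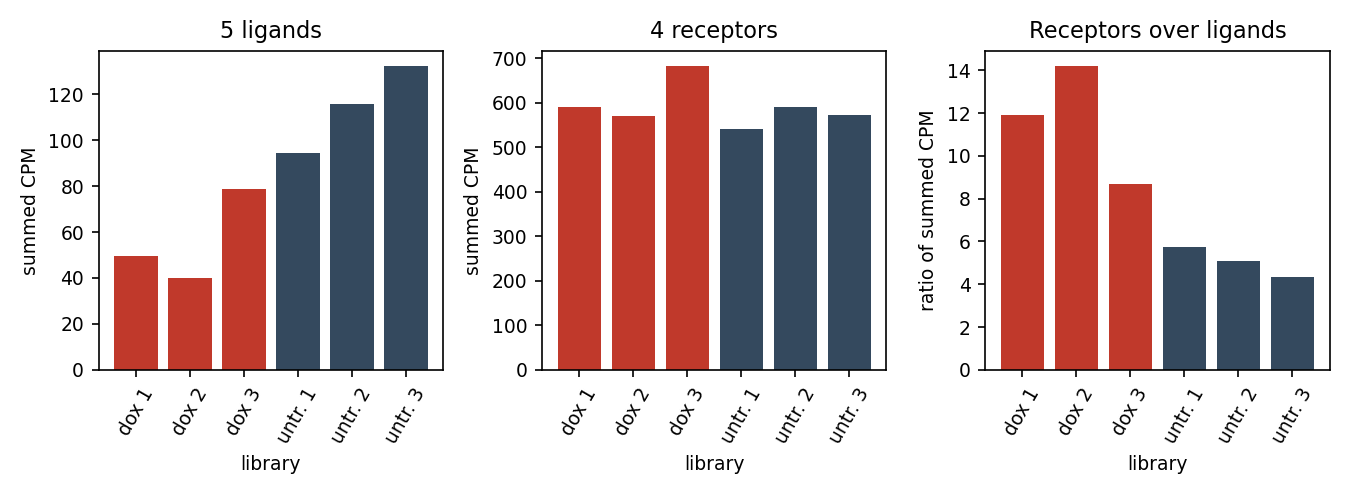
Summed CPM of the 5 ligands, summed CPM of the 4 receptors, and the ratio of receptors to ligands in each library, with doxycycline (red) left of untreated (dark blue) and 1 bar per library. Ligand sums reach 40.2 to 78.5 CPM in doxycycline and 94.5 to 132 CPM in untreated libraries, and the ratio is 8.70 to 14.2 in doxycycline and 4.33 to 5.72 in untreated libraries.

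To compare levels between genes, CPM were divided by exonic length in kilobases (RPKM). In doxycycline libraries the order was Lifr (23.0 ± 4.27 RPKM), Socs3 (22.8 ± 5.14), Il6st (22.3 ± 1.68), Clcf1 (8.63 ± 2.77), Il11ra1 (7.76 ± 2.15), Osmr (7.03 ± 1.76), Il11 (2.89 ± 0.413), Lif (2.76 ± 1.35), Osm (1.64 ± 1.81) and Il6 (0.610 ± 0.407, SD, n = 3 each). In untreated libraries it was Socs3 (31.7 ± 3.48 RPKM), Il6st (23.8 ± 0.821), Il11 (15.95 ± 1.07), Lifr (15.7 ± 1.10), Clcf1 (9.93 ± 1.54), Osmr (9.01 ± 1.52), Lif (6.24 ± 1.10), Osm (6.11 ± 3.14), Il11ra1 (5.76 ± 0.985) and Il6 (0.935 ± 0.218, SD, n = 3 each). Il11 thus stood at the third rank of the RPKM level in untreated and at the seventh in doxycycline libraries. In doxycycline libraries the ranges of neighbours in this order were separate between Il6st and Clcf1 and between Osmr and Il11, and overlapped for the other neighbours. In untreated libraries they were separate between Socs3 and Il6st, Il6st and Il11, Lifr and Clcf1, and Il11ra1 and Il6, and overlapped for the rest. With the length of the longest transcript, Osmr and Lifr both stood above Il11 in untreated libraries, where Il11 then had the fifth rank, and Il11ra1 stood above Lif and Osm. In doxycycline libraries Il11 kept the seventh rank, Osmr moved up to the fourth past Il11ra1 and Clcf1, and Il6st and Lifr changed places. The exonic length of Osmr, 12113 bases, joins transcripts of at most 5491 bases.

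Ligand levels set against their own receptor chains differed in size. Il11 made up 20.3%, 20.9% and 14.0% of the summed ligand RPKM in doxycycline replicates 1, 2 and 3, against 45.5%, 42.0% and 36.2% in untreated replicates 1, 2 and 3. The RPKM ratio of Il11 to Il11ra1 was 0.399 ± 0.141 in doxycycline and 2.81 ± 0.435 in untreated libraries. The ratio of Lif to Lifr was 0.120 ± 0.054 in doxycycline and 0.402 ± 0.100 in untreated libraries, and that of Osm to Osmr was 0.211 ± 0.213 in doxycycline and 0.669 ± 0.315 in untreated libraries (SD, n = 3 each). The ratios of Il11 to Il11ra1 and of Lif to Lifr did not overlap between the groups, while those of Osm to Osmr did. Their size depends on the length used, while the comparison between groups does not. Exonic length exceeds the longest transcript for Osmr (12113 against 5491 bases) and Il11ra1 (4471 against 2605 bases), which raises the ratios to these receptors. The uncertain level of Il11ra1 applies to its ratio as well. Lifr stood at 1.03 ± 0.203 times Il6st in doxycycline and 0.661 ± 0.065 times in untreated libraries.

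The genes whose profile over the 6 libraries lay closest to that of Il11, by root mean square distance of centred log2 CPM among 13607 genes, were Gdf15 (0.25 log2 units), Car6 (0.33), Adm2 (0.35), Extl1 (0.36) and Hoxb9 (0.36). Gdf15, a stress-induced secreted factor, was at 4.53, 5.77 and 4.70 CPM in doxycycline replicates 1, 2 and 3, against 29.5, 25.9 and 28.2 CPM in untreated replicates 1, 2 and 3. Car6 encodes a secreted carbonic anhydrase and was at 8.30, 6.32 and 7.90 CPM in doxycycline, against 31.3, 28.0 and 24.3 CPM in untreated replicates 1, 2 and 3. All 5 were high in every untreated library and low in every doxycycline library, as the choice by likeness to Il11 makes them.

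The other genes of the pathway were tested in the fit over all genes. Of 113 genes in 7 lists, 96 passed the filter on low counts, and 3 were higher (2.84% of all genes tested were) and 6 lower (2.18% of all genes tested were, and 5.02% in either direction), with a median log2 fold change of -0.18. No other ligand or receptor chain of the family and no JAK, STAT or SOCS gene of the lists passed the threshold in edgeR. Those that passed were transcription factors and secreted proteins of the response and of the regulator lists, 2 of which (Junb and Cebpb) are in both.

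**Figure D4:**
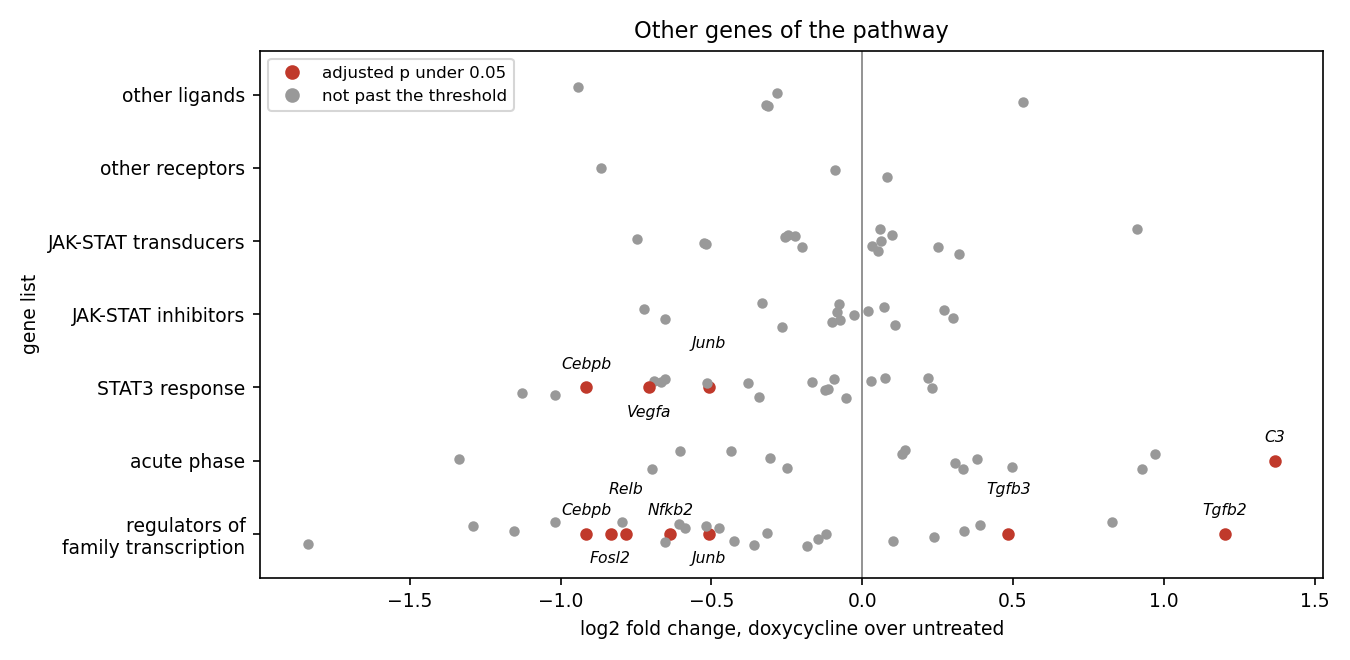
Log2 fold change, doxycycline over untreated, of the other pathway genes tested, a point per gene in 7 lists (points spread vertically for legibility), with genes at an adjusted p under 0.05 in red and named. Fosl2, Relb, Nfkb2, Junb, Cebpb and Vegfa lie left of 0 and Tgfb2, Tgfb3 and C3 right of it. Junb and Cebpb appear in both lists that hold them.

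Of 7 other family ligands, 5 were tested and 0 passed the threshold in edgeR or DESeq2 with all libraries (1 at an unadjusted p under 0.05 in edgeR, median -0.31). Without doxycycline replicate 2, edgeR called 1 of them. Cntf, ciliary neurotrophic factor, was at 2.06 ± 0.175 CPM in doxycycline and 1.42 ± 0.601 CPM in untreated libraries (SD, n = 3 each; log2 fold change 0.53, edgeR adjusted p = 0.471). Of 5 other receptor genes, 3 were tested and 0 passed in edgeR or DESeq2 (0 at an unadjusted p under 0.05 in edgeR, median -0.09). Cntfr, the alpha chain for ciliary neurotrophic factor and Clcf1, was at 7.66 ± 5.25 CPM in doxycycline and 13.9 ± 0.378 CPM in untreated libraries (-0.86, edgeR adjusted p = 0.334). Il6ra, the interleukin 6 alpha chain, was at 39.2 ± 8.43 CPM in doxycycline and 41.7 ± 6.25 CPM in untreated libraries (-0.09, edgeR adjusted p = 0.815).

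Of 15 JAK-STAT transducers, all tested, 0 passed the threshold in edgeR and the median was 0.03. An unadjusted p under 0.05 in edgeR was reached by 7, DESeq2 called 3, and edgeR called 2 without doxycycline replicate 2 and 1 without doxycycline replicate 1. Stat3, the main transcription factor of the pathway, was at 205 ± 12.8 CPM in doxycycline and 243 ± 6.51 CPM in untreated libraries (SD, n = 3 each; log2 fold change -0.25, SE 0.07, edgeR adjusted p = 0.0843). Its groups did not overlap, as was so for 29.6% of all genes tested. The same held for Jak1 and Pias1, both higher in doxycycline, and for Jak3 and Cish, both lower. Jak1, the kinase most tied to gp130, was at 292 ± 13.4 CPM in doxycycline and 273 ± 0.480 CPM in untreated libraries (0.10, edgeR adjusted p = 0.387). Jak3, which serves receptors with the common gamma chain, was at 42.7 ± 6.40 CPM in doxycycline and 61.0 ± 1.72 CPM in untreated libraries (-0.52, edgeR adjusted p = 0.054). Of 15 inhibitors, 14 were tested and 0 passed in edgeR (median -0.08), with 5 at an unadjusted p under 0.05, 1 called by DESeq2 and 2 in edgeR without doxycycline replicate 2. Pias1, a SUMO ligase, was at 105 ± 7.86 CPM in doxycycline and 85.5 ± 4.00 CPM in untreated libraries (0.30, edgeR adjusted p = 0.0911). Cish, a SOCS gene induced by STAT5, was at 7.25 ± 0.900 CPM in doxycycline and 11.97 ± 0.275 CPM in untreated libraries (-0.72, edgeR adjusted p = 0.0932).

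Of 20 STAT3 response genes, all tested, 3 fell and 0 rose (median -0.36). Cebpb, the C/EBP factor of the acute phase response, fell to 13.6 ± 1.24 CPM in doxycycline, against 25.7 ± 0.702 CPM in untreated libraries (SD, n = 3 each; log2 fold change -0.91, SE 0.16, edgeR adjusted p = 0.0234). Junb, an AP-1 subunit, fell to 85.8 ± 2.23 CPM in doxycycline, against 122 ± 10.8 CPM in untreated libraries (-0.51, SE 0.09, edgeR adjusted p = 0.0233). Vegfa, the angiogenic factor, fell to 134 ± 32.1 CPM in doxycycline, against 219 ± 10.1 CPM in untreated libraries (-0.71, SE 0.16, edgeR adjusted p = 0.0447).

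Of 27 acute phase genes, 15 were tested, 1 rose and 0 fell (median 0.14). The complement gene C3 rose to 41.1 ± 14.9 CPM in doxycycline, against 15.9 ± 2.58 CPM in untreated libraries (SD, n = 3 each; log2 fold change 1.37, SE 0.28, edgeR adjusted p = 0.0326). Lcn2, a gene of neutrophils and epithelia, was at 18.7 ± 9.58 CPM in doxycycline and 47.4 ± 3.67 CPM in untreated libraries (-1.34, SE 0.34, edgeR adjusted p = 0.0598).

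Of 28 genes known to regulate transcription or mRNA decay of the family's cytokines, all tested, 5 fell and 2 rose (median -0.49). The AP-1 subunit Fosl2 fell to 101 ± 7.55 CPM in doxycycline, against 180 ± 6.18 CPM in untreated libraries (SD, n = 3 each; log2 fold change -0.83, SE 0.08, edgeR adjusted p = 0.00507). Relb, an NF-kB subunit, fell to 34.6 ± 4.37 CPM in doxycycline, against 59.6 ± 6.49 CPM in untreated libraries (-0.78, SE 0.14, edgeR adjusted p = 0.023). The others that fell were Junb and Cebpb, given above, and Nfkb2, which lies outside the naming rule. Tgfb2, a transforming growth factor beta ligand, rose to 35.9 ± 9.29 CPM in doxycycline, against 15.6 ± 2.08 CPM in untreated libraries (1.20, SE 0.22, edgeR adjusted p = 0.0241). Tgfb3 rose to 98.3 ± 9.32 CPM in doxycycline, against 70.3 ± 2.31 CPM in untreated libraries (0.48, SE 0.10, edgeR adjusted p = 0.0323). Of the 9 genes called over these lists, Fosl2 stayed past the threshold in edgeR without untreated replicate 1, 2 or 3 (adjusted p = 0.0374, 0.0353 and 0.0429, and 4.96e-15 to 0.0429 over its 15 alternatives) and the other 8 did not. Few genes of the whole table passed without an untreated replicate (11 to 27 higher and 12 to 25 lower). Fosl2 and Relb stayed past it without doxycycline replicate 3, and Cebpb, Fosl2 and Relb without doxycycline replicate 1, while all 9 kept their direction whichever library was left out. With offsets for GC content and length, C3, Fosl2, Relb, Tgfb2 and Tgfb3 stayed past the threshold and Junb, Cebpb, Vegfa and Nfkb2 did not. Junb then had a log2 fold change of -0.22 (edgeR adjusted p = 0.133), Cebpb -0.49 (0.107) and Nfkb2 -0.42 (0.0936), while Vegfa was at -0.68 (0.0556), close to its value without offsets. With limma-voom C3 had a log2 fold change of 1.31 (adjusted p = 0.0717), and the other 8 stayed past the threshold.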

How the data were processed

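RNA was extracted from frozen tumours, depleted of ribosomal RNA and sequenced from TruSeq libraries, per the labels' protocols. The authors deposited raw read counts per gene, for which the submitters' processing notes name TopHat2 2.0.8, TopHat, HTSeq and build mm9 without their roles. Strand use is not given in the sources used here. The table has 21671 named genes; 90 unnamed rows (0.0361% to 0.0402% of counts) were left out. Counts were tested in R 4.3.3 with edgeR 4.0.16 (filterByExpr, TMM factors 0.985 to 1.02, robust quasi-likelihood test, two-sided, Benjamini-Hochberg over 14809 genes, threshold 0.05), after the same code was tested on simulated data. Standard errors are the log2 fold change over the square root of F, with 95% t intervals. Replicates differed beyond sampling noise and were kept apart. Exonic lengths and GC content came from GENCODE M21 (GRCm38), which matched 21478 genes. Named genes, beside the members, are those past the threshold in each list (at most 6 by p), 2 more where fewer passed, Il6ra, Stat3 and Jak1, and the 5 genes nearest Il11 among those with a mean of at least 1 CPM (prior count 0.5). Predicted genes were left out of those. Alternatives used DESeq2 1.42.0, limma 3.58.1, other scaling and filters, GC and length offsets, a replicate block, and each library left out. The members, lists and tests were chosen with earlier results of these data known. A result for 1 gene that this rule names is not reported here.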

Additional observations from a re-analysis of the deposited data

How the results depend on the processing

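All 10 members kept the sign of their log2 fold change under all 15 alternatives, with Il11 between -2.56 and -2.35, Lif between -1.52 and -0.83, and Lifr between 0.40 and 0.66. The difference in ligand to receptor balance was -1.56 with each gene weighted equally, -0.85 without Il11, the gene that led to the choice of this family, and within the doxycycline SD of 0.36 from -1.18 under the other alternatives, that without Il11 included. Over both groups, 10 ranks of the RPKM order changed with the longest transcript, and 0 to 6 when a library was left out. Genes called over the whole table were 887 higher and 782 lower with DESeq2, 261 higher with limma-voom, and 11 to 1244 higher and 12 to 866 lower when a library was left out. The fewest were called without an untreated replicate, at 11 to 27 higher and 12 to 25 lower. Pathway genes called were 19 lower with DESeq2, 2 lower with GC and length offsets, and 0 to 10 higher and 1 to 12 lower when a library was left out. The 0 came without doxycycline replicate 1 or 3 or any untreated replicate, where 4 to 6 genes with higher levels had an unadjusted p under 0.05 in edgeR. The replicate numbers did not pair the samples (correlations of deviations -0.07 to 0.02, no library closest to its own number). With the replicate number as a block, 215 genes were higher and 179 lower, with 1 pathway gene higher, since Tgfb2 and Tgfb3 missed the threshold (adjusted p = 0.0555 and 0.0635, log2 fold changes 1.18 and 0.48), as did Cebpb (0.0639, -0.92); with GC and length offsets added, 173 were higher and 153 lower. Of the members, Il6 had the lowest mean level, at 8 to 40 counts a library, and Osm had 11 to 320. How much depth adds to their spread over 3 libraries a group was not tested.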
